A study of Mus musculus with 32 samples.

Results

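Choroid plexus epithelial RNA was followed through 10 genes, Ttr, Folr1, Kl, Aqp1, Enpp2, Clic6, Otx2, Slc4a5, Sostdc1 and Prlr, out of 33280 genes in each of the count tables of the stroke experiment. The genes were selected on earlier results from these libraries, in which choroid plexus RNA had been seen in tissue slices and in sorted macrophages, so their levels are given as a description and their call counts stand beside the share of all genes called. All 10 were found by name in both tables.

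WT mice received vehicle (CTL, mice A2, A3, A4 and B1) or 200 mg/kg of BLZ945 (mice C2, C3, C4 and D1) for 7 days, and 8 weeks later a thromboembolic stroke was induced by thrombin in the middle cerebral artery. At 1 day after stroke, RNA was taken from slices of whole brain tissue and from CNS-associated macrophages (CAMs) of the ipsilateral (lesioned) and contralateral hemisphere of every mouse. BLZ945 inhibits CSF1R, a receptor needed for the survival of microglia and CAMs, and the BLZ945 mice had been depleted and had repopulated before the stroke. All mice of both arms carried the stroke and wild-type alleles, with no transgene or Cre. The labels describe the source of the CAMs as brain from which the choroid plexus had been taken out, and the cells were gated as CD45+CD11b+CD206+ and negative for Ly6C, Ly6G and CD11c. Each of the 4 groups held 4 mice per compartment. The CAM libraries of A3 ipsilateral and C2 ipsilateral, which the labels mark as degraded RNA, held 54055 and 55155 counts and were left out, so that 3 mice remained in each ipsilateral CAM group.

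The choroid plexus is a vascularised tissue inside the brain ventricles, covered by a single layer of cuboidal epithelium that secretes cerebrospinal fluid. This epithelium is the main source of transthyretin in the brain and moves water, chloride and bicarbonate through channels and transporters on its apical and basolateral faces. It is a small structure hanging free in the ventricle. Of the 10 genes, Ttr encodes the thyroxine and retinol carrier transthyretin, Enpp2 the secreted lysophospholipase autotaxin, and Sostdc1 a secreted antagonist of BMP and WNT signalling. Aqp1 encodes a water channel, Clic6 a chloride intracellular channel protein and Slc4a5 an electrogenic sodium bicarbonate cotransporter. Folr1 encodes a folate receptor that carries folate into the cerebrospinal fluid, Kl the FGF23 co-receptor Klotho, and Prlr the prolactin receptor. Otx2 encodes a homeodomain transcription factor required for formation of the choroid plexus.

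Because 1 of the genes encodes a transcription factor with a known core motif, promoters of the 10 genes, Otx2 included, were searched for it. RefSeq promoters (GRCm38.p6, 250 bases before to 50 after each start) were at hand for 5 of the 10 genes, namely Kl, Aqp1, Otx2, Slc4a5 and Prlr, with 10 starts in all. The OTX core TAATCC, or GGATTA on the other strand, stood in 0 of the 6 windows of the other 4 genes, in 1 of the 4 windows of Otx2 and in 7.06% of all 32851 promoters. The window that held it is shown with the motif in capitals, at position -211 from the start, next to the window of Slc4a5, which of the 10 genes had no count in the most libraries (11 of 30). A match of letters is a description of the window and does not show binding.
Otx2, chr14:48665060-48665359, minus strand: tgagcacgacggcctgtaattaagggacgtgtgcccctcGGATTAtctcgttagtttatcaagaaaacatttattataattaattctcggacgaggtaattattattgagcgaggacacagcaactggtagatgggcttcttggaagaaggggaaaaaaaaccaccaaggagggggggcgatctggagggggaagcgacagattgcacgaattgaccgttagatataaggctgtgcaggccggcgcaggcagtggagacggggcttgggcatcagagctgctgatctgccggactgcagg
Slc4a5, chr6:83237125-83237424, plus strand: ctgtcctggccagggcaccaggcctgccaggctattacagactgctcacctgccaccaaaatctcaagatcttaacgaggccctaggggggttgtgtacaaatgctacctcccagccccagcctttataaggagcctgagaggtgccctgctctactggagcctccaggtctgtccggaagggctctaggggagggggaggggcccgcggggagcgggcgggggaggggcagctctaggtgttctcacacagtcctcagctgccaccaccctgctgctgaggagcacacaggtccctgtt

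The 16 tissue libraries held between 9288717 and 12781505 counts on genes, and the 14 CAM libraries used held between 7397393 and 11081409. A floor of 3 counts corresponded to 0.235 to 0.323 CPM (counts scaled to a common library total) in tissue and 0.271 to 0.406 CPM in CAMs, which covers counting error only. The 10 border macrophage genes (Mrc1, Cd163, Lyve1, Pf4, Ms4a7, Csf1r, Clec12a, F13a1, Cbr2 and Stab1), all detected, summed to between 3491 and 16175 CPM in the CAM libraries and to between 126 and 161 CPM in tissue. The ipsilateral tissue library of mouse A3 is a different one in the labels and in the column names, and the labels were followed.

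In tissue, Ttr ranged over 4 orders of magnitude between slices and did not sort by treatment or hemisphere. In CTL mice the ipsilateral slice held 27.5 CPM in A2, 2425 in A3, 2.12 in A4 and 318 in B1, and the contralateral slice held 57.6, 2171, 0.908 and 613 CPM in the same mice. In BLZ945 mice the ipsilateral slice held 4095 CPM in C2, 1.46 in C3, 1.83 in C4 and 37.2 in D1, and the contralateral slice held 2217, 0.596, 0.359 and 2709 CPM. The highest 5 libraries were both slices of A3, both slices of C2 and the contralateral slice of D1, whereas both slices of A4, C3 and C4 held 24 counts or fewer. The hemispheres of a mouse differed 5.10-fold or less in 7 of 8 mice, and in D1 the contralateral slice held 72.8 times the Ttr of the ipsilateral slice.

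The 2 other secreted factors followed Ttr above different base levels. Enpp2, which oligodendrocytes also express, held 195.5 to 335.9 CPM in both slices of A2, A4, C3 and C4 and the ipsilateral slice of D1, and 1301 to 2030 CPM in both slices of A3 and C2 and the contralateral slice of D1. In B1 it held 442 CPM ipsilaterally and 574 contralaterally, between these ranges. Sostdc1 ranged from 0.101 CPM (A4 contralateral, 1 count) to 19.8 CPM (C2 ipsilateral).

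The transport genes, the receptors and Otx2 were, like Ttr, each highest in the same 5 slices. Kl was lowest in C3 contralateral (1.89 CPM) and highest in C2 ipsilateral (194 CPM), with a median of 8.42 CPM in ipsilateral and 19.7 CPM in contralateral slices. Slc4a5 was at 0 in C3 and C4 contralateral and at 39.6 CPM in C2 ipsilateral. Aqp1 ranged from 0.156 to 30.03 CPM, Clic6 from 3.28 to 99.99, Folr1 from 0.298 to 32.9, and Prlr from 0.390 to 70.5. The transcription factor Otx2 ranged from 0.195 CPM in C3 ipsilateral to 16.6 CPM in D1 contralateral. Over the 16 slices, Pearson's r of each gene with Ttr on the log2(CPM + 1) scale was between 0.790 (Clic6) and 0.953 (Kl), a description of slices that come in pairs from 8 mice.

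**Figure D1:**
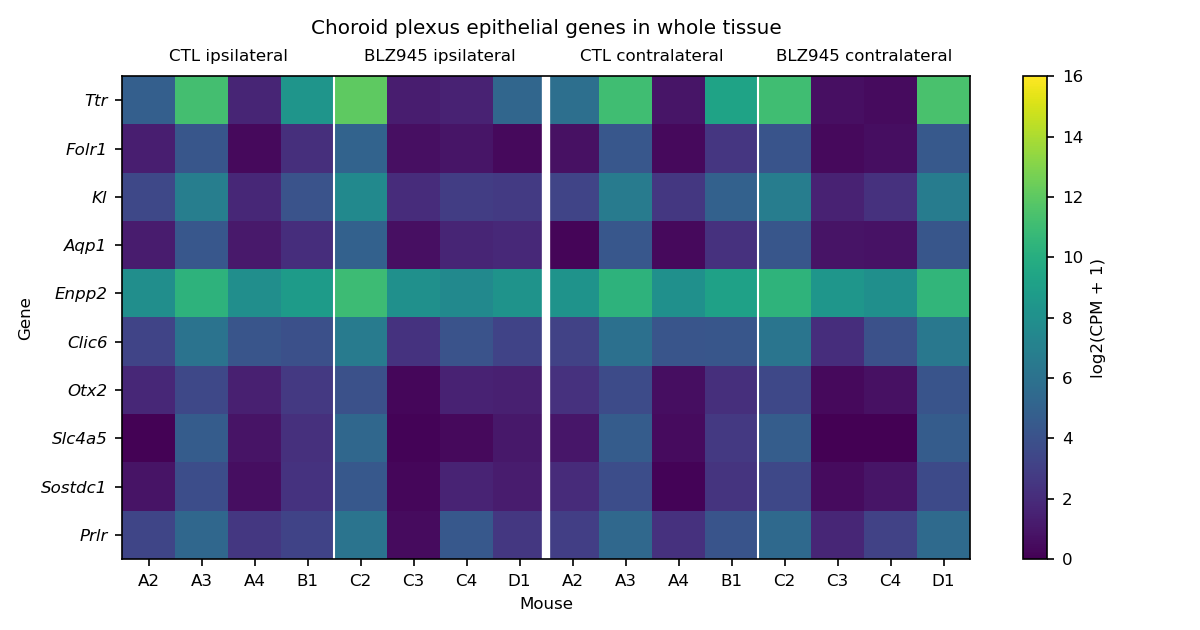
Level of the 10 genes in each tissue library as log2(CPM + 1), with 1 column per mouse in each group and 1 row per gene. Both columns of A3, both of C2 and the contralateral column of D1 are the brightest, with Ttr between 2171 and 4095 CPM, and Enpp2 stays at 195.5 CPM or more in every column.

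Summed over the 10 genes, the level was 1356 ± 1810 CPM in CTL ipsilateral, 1427 ± 1616 in CTL contralateral, 1874 ± 3169 in BLZ945 ipsilateral and 2249 ± 2250 in BLZ945 contralateral slices (SD, n = 4 each), so that the SD was about as large as the mean or larger in every group. The sum was higher contralaterally in 6 of 8 mice, as was Enpp2 alone, whereas Ttr alone was higher there in 3 of 8. The summed level of 38 other choroid plexus epithelial genes was higher contralaterally in 2 of 8 mice and lower in the other 6. That sum did not follow Ttr in every slice. It was 523 CPM in C4 ipsilateral (Ttr 1.83 CPM) and 451 CPM in B1 ipsilateral (Ttr 318 CPM). Vat1l, the gene of that list with the highest mean in tissue, held 56.2 CPM or more in every slice. In these bulk samples fewer epithelial cells and less RNA per cell cannot be told apart.

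None of the 10 genes was called in tissue. Ipsilateral and contralateral slices of CTL mice overlapped for every gene, with a Ttr log2 fold change of -0.05 (SE 2.20, adjusted p = 0.999) and a range over the 10 genes of -0.20 to 0.08 with a median of -0.08, against -0.01 over all 18968 genes tested. In BLZ945 mice the Ttr log2 fold change was -0.29 (SE 2.20, adjusted p = 0.990), and the 10 genes lay between -0.58 and 0.04. The share of all genes called was 0.443% in CTL and 1.16% in BLZ945 mice. With the mouse as a replicate block, which uses that both hemispheres come from the same animal, it was 0.975% and 2.18%, and again 0 of the 10 genes were called, with Ttr at -0.55 (SE 0.67, adjusted p = 0.914) and -1.80 (SE 1.17, adjusted p = 0.532). At an unadjusted p under 0.05, 0 of the 10 passed in either treatment without the block. Of all 18968 genes, 1182 (CTL) and 2057 (BLZ945) did. With the block 0 of the 10 passed in CTL mice, where 1765 of all genes did. In BLZ945 mice 1 (Enpp2) passed with it, against 15.1% of all genes. DESeq2 called 0 of the 10 among 139 (CTL) and 349 (BLZ945) genes called.

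The difference between treatments in tissue was smaller than the spread between slices. BLZ945 was above CTL by a Ttr log2 fold change of 0.80 (SE 2.21, adjusted p = 1) contralaterally and 0.56 (SE 2.20, adjusted p = 0.995) ipsilaterally, with 0% of all genes called in both and 0% for the interaction of treatment and hemisphere, where Ttr stood at -0.24 (SE 3.11, adjusted p = 0.99992). At an unadjusted p under 0.05, 616, 858 and 386 genes passed in these 3 tests, with none of the 10 among them, and DESeq2 called 0, 1 and 0 genes. Without mouse C2, whose ipsilateral slice was the richest, the ipsilateral difference between treatments turned to -5.71 and that between hemispheres in BLZ945 mice moved to -6.08. Without D1 the latter turned to 0.84, and without B1 the difference between hemispheres in CTL mice turned to 0.13.

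Ependyma genes moved with the choroid plexus genes in tissue. The 10 ependyma genes, all detected, summed to between 44.1 and 149 CPM over the 16 slices, and the 5 slices with the highest choroid plexus sum were also the 5 with the highest ependyma sum, at 114 CPM or more. Thalamus genes summed to between 172 and 2101 CPM and striatum genes to between 731 and 4566 CPM. The 5 slices richest in choroid plexus genes held 695 to 1006 CPM of thalamus and 1479 to 2370 CPM of striatum genes, inside both ranges. Both slices of A4, C3 and C4, the lowest in Ttr, held 172 to 320 CPM of thalamus genes. Every other slice held 554 CPM or more of them. The part of slice position in the levels of the 10 genes was not tested.

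Where choroid plexus RNA was plentiful in tissue, the 10 genes stood in similar proportions from slice to slice. In the 5 slices with at least 20000 Ttr counts, 100 Ttr counts came with 49.6 to 60.8 counts of Enpp2, 3.87 to 5.00 of Kl, 2.44 to 3.36 of Clic6, 1.63 to 1.96 of Prlr, 0.910 to 1.15 of Slc4a5, 0.761 to 0.900 of Folr1, 0.690 to 0.876 of Aqp1, 0.411 to 0.588 of Sostdc1 and 0.365 to 0.614 of Otx2. Per kilobase of exon (GENCODE M21), Ttr stood at 3453 CPM in C2 ipsilateral and Enpp2 at 351, followed by Clic6 at 25.5 and Kl at 20.8. Otx2 was the lowest per length at 3.55 CPM per kilobase.

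The libraries of sorted CAMs also held these transcripts, although the labels describe their source as brain from which the choroid plexus was removed. In every mouse with both libraries the contralateral library held more. Ttr was at 0.478 CPM (4 counts) ipsilaterally and 24.9 CPM contralaterally in A2, at 318 and 9194 CPM in A4, and at 5.22 and 76.7 CPM in B1, and A3 contralateral held 225 CPM. In BLZ945 mice it was at 1363 and 20397 CPM in C3, at 417 and 37740 CPM in C4, and at 177 and 5096 CPM in D1, and C2 contralateral held 1440 CPM. The contralateral level exceeded the ipsilateral level 14.7-fold to 90.5-fold in 6 of 6 mice. Ttr did not overlap between the hemispheres in BLZ945 mice, where the lowest contralateral library (1440 CPM) stood just above the highest ipsilateral one (1363 CPM), and it did overlap in CTL mice.

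**Figure D2:**
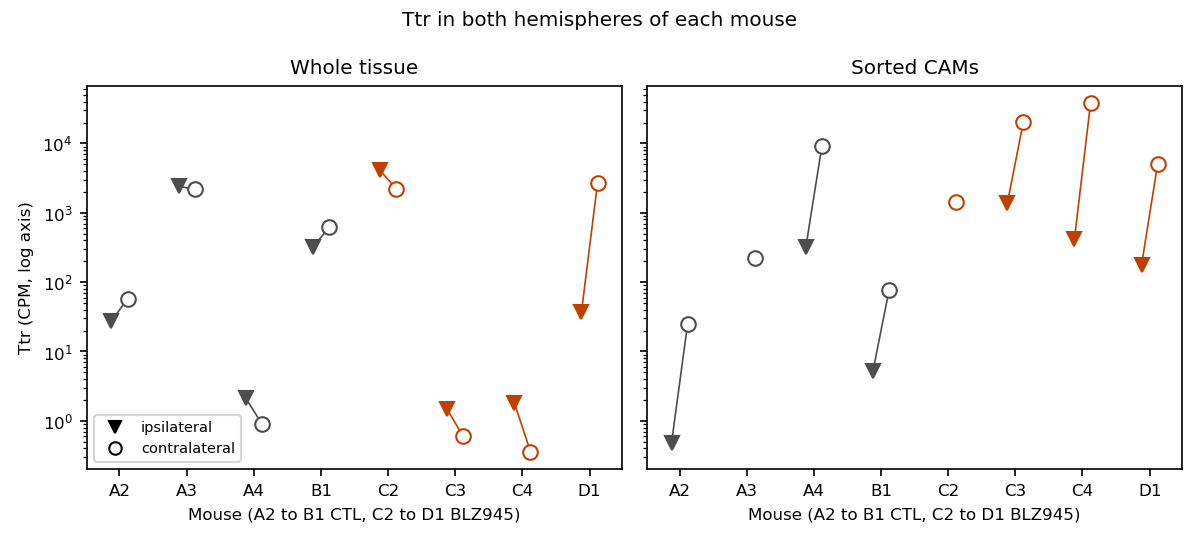
Ttr level in CPM on a log axis in whole tissue (left) and sorted CAMs (right), with filled triangles for the ipsilateral and open circles for the contralateral library of each mouse, joined where both were used, in grey for CTL and orange for BLZ945. In CAMs every line rises from triangle to circle, by 14.7-fold or more, whereas in tissue Ttr was higher contralaterally in 3 of 8 mice.

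Enpp2 had the same direction as Ttr in the CAMs of every mouse. It held 6.93 and 241 CPM in A2, 104 and 4637 CPM in A4, 39.4 and 109 CPM in B1, 278 and 12583 CPM in C3, 79.1 and 19469 CPM in C4, and 69.1 and 3566 CPM in D1, ipsilaterally and contralaterally in turn, with 401 CPM in A3 and 519 CPM in C2 contralaterally. The contralateral libraries of both treatments lay above all ipsilateral libraries of the same treatment. The third secreted factor, Sostdc1, was at 0 in 3 of 6 ipsilateral libraries and reached 17.8 CPM in C3, and contralaterally it ranged from 3.25 CPM in A2 to 394 CPM in C4.

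The less abundant genes were low or not detected in many ipsilateral libraries. Slc4a5 had no count in any of the 6 ipsilateral libraries and up to 71.7 CPM contralaterally (C4), with 0 in A2, B1 and C2. Aqp1 had 8 counts in C4 and none in the other 5 ipsilateral libraries, and up to 91.2 CPM contralaterally. Otx2 was at 0 in A2, B1 and D1, at 7.11 CPM in A4, 1.14 in C3 and 0.233 in C4 ipsilaterally, and contralaterally it held 6.21 CPM in A2, 7.43 in A3, 31.04 in A4 and 4.87 in B1, and 8.52 in C2, 36.8 in C3, 124 in C4 and 25.7 in D1. Folr1 reached 14.6 CPM ipsilaterally and 378 contralaterally, Kl 16.03 and 515, Clic6 12.3 and 410, and Prlr 8.63 and 211. None of the 10 genes was lower contralaterally than ipsilaterally in any of the 6 mice, and Otx2, like Ttr, Enpp2 and Sostdc1, was higher in all 6. In the other 6 genes some pairs were equal at 0.

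**Figure D3:**
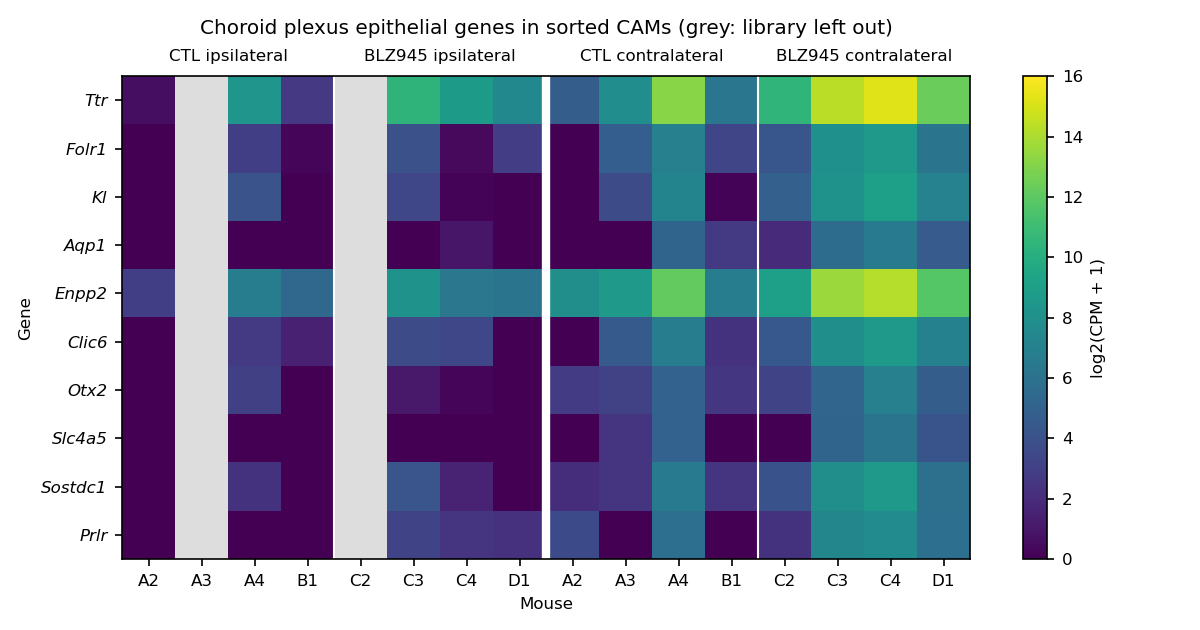
Level of the 10 genes in each CAM library as log2(CPM + 1), arranged like the plot of tissue levels and on the same colour scale, with the libraries left out in grey. The contralateral columns of A4, C3, C4 and D1 are the brightest, with Ttr between 5096 and 37740 CPM, and Slc4a5 is at 0 in all 6 ipsilateral columns.

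Summed over the 10 genes, CAM libraries held 172 ± 252 CPM in CTL ipsilateral (SD, n = 3), 3917 ± 7036 in CTL contralateral (SD, n = 4), 826 ± 773 in BLZ945 ipsilateral (SD, n = 3) and 26233 ± 26081 CPM in BLZ945 contralateral libraries (SD, n = 4). In C4 contralateral, 5.94% of all counts (95% Wilson interval 5.93% to 5.96%) came from the 10 genes, and in A2 ipsilateral 0.000741% (0.000578% to 0.000950%). These intervals cover counting error only.

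The hemisphere difference in CAMs pointed the same way for all 10 genes in both treatments, and how many passed the test depended on whether the mouse entered the model. In BLZ945 mice 2 of the 10 were called lower ipsilaterally, Enpp2 with a log2 fold change of -5.82 (SE 1.56, adjusted p = 0.0406) and Otx2 with -6.56 (SE 1.78, adjusted p = 0.0428), against 4.41% of all 18297 genes, and 9 of the 10 were lower at an unadjusted p under 0.05, against 14.7% of all genes. DESeq2 called 4 of the 10 lower, against 10.9% of all genes. Ttr stood at -4.46 (SE 2.11, adjusted p = 0.227), and the median of the 10 was -5.23, against -0.15 over all genes. For 7 of the 10 genes every ipsilateral library lay below every contralateral one, as it did for 15.2% of all genes. In CTL mice 0 of the 10 were called by edgeR, against 2.36% of all genes, with 6 of the 10 lower at an unadjusted p under 0.05, against 11.9%, and 3 called lower by DESeq2, against 8.19%. Ttr there stood at -4.26 (SE 2.09, adjusted p = 0.293), the median of the 10 was -4.24, against -0.11 over all genes, and only Enpp2 did not overlap, against 12.2% of all genes. Aqp1, Slc4a5 and Prlr had no count in any CTL ipsilateral library. Their contralateral means stood 29.8-fold, 26.6-fold and 48.9-fold above a floor of 3 counts per library, a bound on means and not on single mice. Contralaterally Aqp1 was also at 0 in A2 and A3, Slc4a5 in A2 and B1, and Prlr in A3 and B1. A4 contralateral was the highest, at 35.0, 31.7 and 55.6 CPM. In BLZ945 mice the contralateral mean of Slc4a5, with 0 in C2, stood 94.0-fold above the floor. With these genes at their bounds the medians were the same.

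With the mouse as a replicate block, the spread between mice was taken out and more of the genes passed. In BLZ945 mice all 10 were called lower ipsilaterally, against 3.73% of all genes, with Ttr at -4.91 (SE 0.50, adjusted p = 0.000645) and Enpp2 at -6.18 (SE 0.82, adjusted p = 0.00202). The 9 genes with ipsilateral counts lay between -8.08 (Aqp1) and -4.38 (Prlr), with adjusted p from 0.000645 to 0.0208, and Slc4a5, which had none, passed with an adjusted p of 0.0105. In CTL mice 5 of the 10 were called, against 1.48% of all genes, namely Ttr at -4.45 (SE 0.52, adjusted p = 0.00299), Enpp2 at -3.99 (SE 0.82, adjusted p = 0.0392), Sostdc1 at -4.93 (SE 1.03, adjusted p = 0.0423), Aqp1 (adjusted p = 0.0385) and Prlr (adjusted p = 0.00299). Folr1, Kl, Clic6, Otx2 and Slc4a5 did not pass in CTL mice, with adjusted p between 0.123 and 0.408. A3 and C2, each with a single CAM library, add nothing to this contrast, so it rests on 3 mice per treatment.

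**Figure D4:**
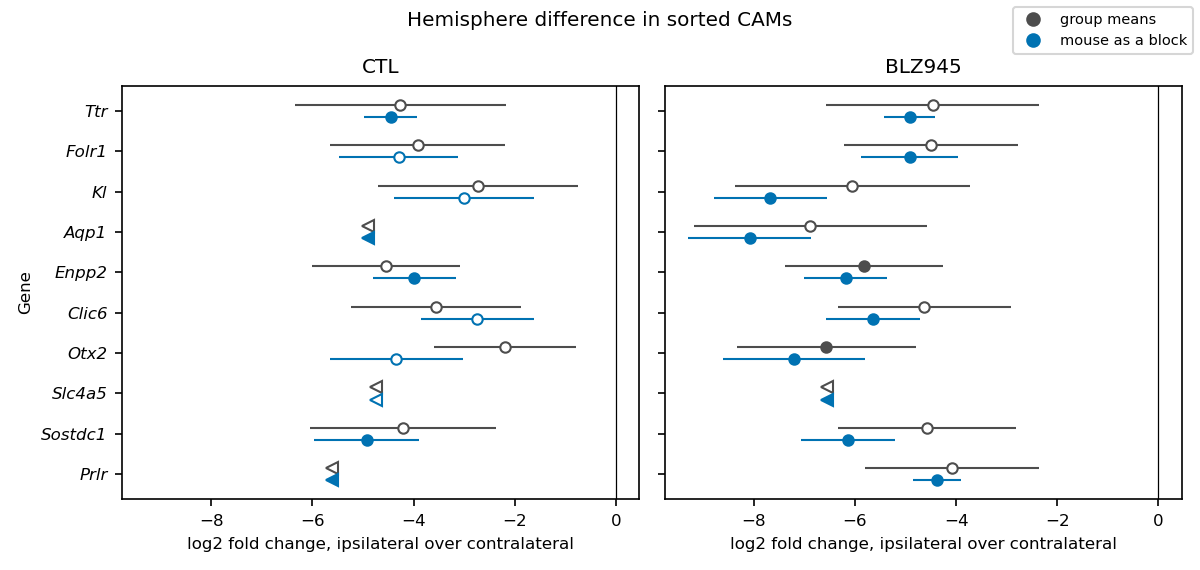
Log2 fold change of ipsilateral over contralateral CAMs for each gene in CTL and BLZ945 mice, with points and bars (SE) from the model of group means in grey and with the mouse as a block in blue. Filled symbols were called, and triangles give the bound for genes with no ipsilateral count; every symbol lies below 0, and with the block 5 are filled in CTL and 10 in BLZ945.

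The 2 calls of the model without the block were lost when single mice were left out. Enpp2 no longer passed without C3 (adjusted p = 0.122), C4 (0.244) or D1 (0.125), nor did Otx2 without C3 (0.105), C4 (0.292), D1 (0.124) or the CTL mouse A3 (0.0506), although both stayed negative. Without the CTL mouse A4, whose contralateral library was the richest of its group, 3 of the 10 were called in BLZ945 mice, with Ttr at -4.46 (adjusted p = 0.0462), and the median of the 10 in CTL mice moved to -6.86. The share of all genes called in this setting is not given here.

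CAMs of BLZ945 mice held more of these transcripts on average than CAMs of CTL mice, but no gene passed the test. Contralaterally all 10 log2 fold changes were positive, between 1.80 and 2.79, with Ttr at 2.79 (SE 1.73, adjusted p = 0.818) and Enpp2, the only 1 of the 10 with an unadjusted p under 0.05 (6.19% of all genes had one), at 2.77 (SE 1.19, adjusted p = 0.759). The groups overlapped for every gene, while 1.31% of all genes lay in every BLZ945 library above every CTL library. Ipsilaterally Ttr stood at 2.59 (SE 1.98, adjusted p = 0.928), 6 of the 8 genes with a fold were positive, and Kl and Otx2 were negative. Prlr had no count in the 3 CTL ipsilateral libraries and 8.63, 4.54 and 3.88 CPM in C3, C4 and D1, at least 16.7-fold higher (edgeR adjusted p = 0.838), and 2.9% of all genes were separated in this way. Without the CTL mouse A4 the contralateral Ttr difference moved from 2.79 to 7.25 (SE 1.36, adjusted p = 0.579) and the median of the 10 from 2.63 to 4.69, and ipsilaterally Ttr moved to 7.81 (SE 1.74, adjusted p = 0.516) and the median from 1.59 to 5.54. Without C3 the ipsilateral Ttr difference was 1.46 and the median 0.55. With any 1 mouse left out, 0 of the 10 were called in either comparison. No gene of the table was called by edgeR in either comparison or for the interaction (0% each), with 1133, 1034 and 912 genes at an unadjusted p under 0.05. Of the 10, Prlr passed that level ipsilaterally, where 5.65% of all genes did. DESeq2 called 44, 128 and 48 genes, with Prlr among the latter 2 lists, which hold 0.700% and 0.262% of all genes. For the interaction without the block Ttr stood at -0.20 (SE 2.47, adjusted p = 0.9999). With the mouse as a block it stood at -0.46 (SE 0.67, edgeR unadjusted p = 0.506), and 0 genes were called. At an unadjusted p under 0.05, 2 of the 10 (Kl and Prlr) and 561 of all 18297 genes passed with the block. By edgeR, a difference between the treatments in the hemisphere effect was thus not called for any gene in either model. DESeq2 called it for Prlr.

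Markers of other cells differed between the same CAM libraries. The border macrophage sum was between 10057 and 16175 CPM ipsilaterally and between 3491 and 13215 CPM contralaterally, and it was lower contralaterally in 5 of 6 mice. The ependyma sum was 212 to 511 CPM ipsilaterally and 522 to 1990 contralaterally, the oligodendrocyte sum 215 to 798 and 1060 to 7851 CPM, and the striatum sum 5.53 to 22.9 and 36.8 to 309 CPM, each higher contralaterally in 6 of 6 mice. All 10 genes of the macrophage, ependyma and oligodendrocyte lists were detected on both sides, and 7 of 10 striatum genes ipsilaterally. These lists did not share the order of the choroid plexus genes in full. The 4 libraries richest in choroid plexus genes (C4, C3, A4 and D1 contralateral) included only 1 of the 4 richest in oligodendrocyte genes, 3 of the 4 richest in ependyma genes and 4 of the 4 richest in striatum genes, and A3 contralateral had the highest oligodendrocyte and ependyma sums (7851 and 1990 CPM) with 703 CPM of choroid plexus genes. The part of other cells in the hemisphere difference of the 10 genes was not tested.

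**Figure D5:**
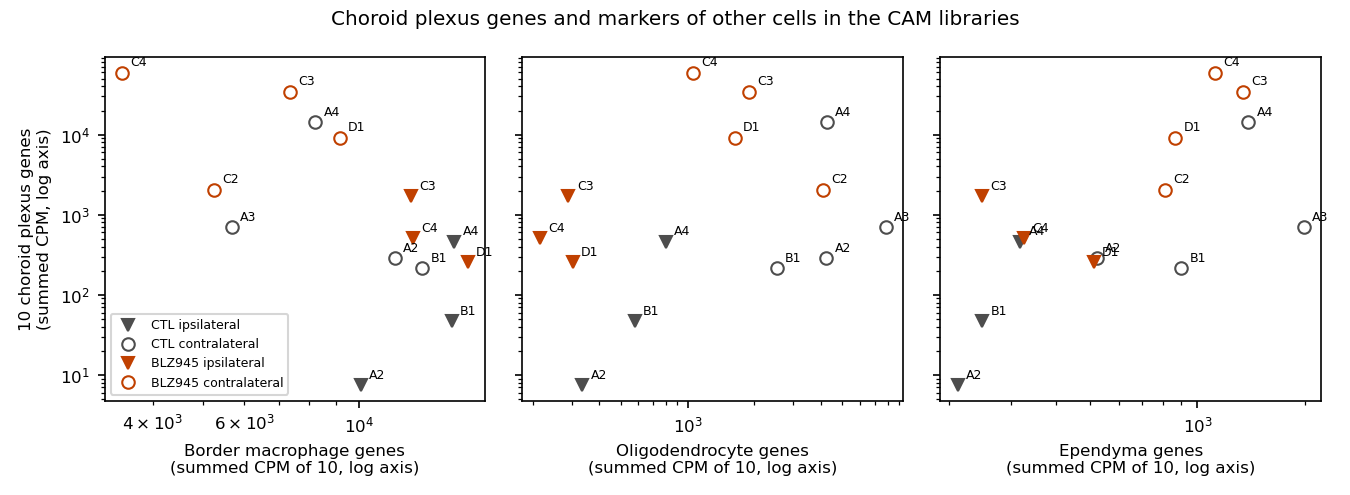
Summed level of the 10 choroid plexus genes against the summed level of 10 border macrophage, oligodendrocyte and ependyma genes in the 14 CAM libraries, all in CPM on log axes, with 1 symbol per library named by mouse. C4 contralateral has the highest choroid plexus sum (59404 CPM) and the lowest macrophage sum (3491 CPM), whereas A3 contralateral is the richest in oligodendrocyte and ependyma genes.

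The level in CAMs did not follow the level in the slice of the same hemisphere. In the contralateral hemisphere of C4, the slice held 4 counts of Ttr (0.359 CPM) and the CAMs 37740 CPM, and in C3 the slice held 0.596 CPM and the CAMs 20397 CPM. In A3 contralateral it was the reverse, with 2171 CPM in the slice and 225 CPM in the CAMs. On each side, Ttr in CAMs was highest in A4, C3 and C4, whose slices held the least Ttr. D1 contralateral was rich in both, with 2709 CPM in the slice and 5096 CPM in the CAMs. A link between the levels in slices and CAMs was not tested. The summed level was higher in CAMs than in the slice in 7 of 14 hemispheres and lower in the other 7. Ttr alone was higher in CAMs in 8 and lower in 6. In slices poor in Ttr the sum was mostly Enpp2, at 252 of 281 CPM in C4 contralateral.

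In the libraries richest in Ttr, several of the 10 genes stood in other proportions in CAMs than in tissue. In the 4 CAM libraries with at least 20000 Ttr counts, 100 Ttr counts came with 50.4 to 70.0 counts of Enpp2, which overlapped the tissue range given above. Sostdc1 (1.04 to 1.18) and Folr1 (1.003 to 1.36) were higher relative to Ttr than in any of the 5 slices, and Kl (1.36 to 2.64), Prlr (0.559 to 1.13), Aqp1 (0.242 to 0.449) and Slc4a5 (0.169 to 0.345) were lower. Clic6 (1.09 to 2.56) and Otx2 (0.181 to 0.504) overlapped. Compartment and library preparation cannot be told apart in these ratios. With a lower limit of 1000 Ttr counts (7 slices and 10 CAM libraries) most of these differences overlapped. Sostdc1 was then at 0.411 to 1.32 in tissue and 0 to 2.03 in CAMs, and Folr1 at 0.761 to 1.08 and 0.0837 to 12.0. Kl reached 5.10, Prlr 2.19 and Slc4a5 2.03 in CAMs, inside or above their tissue ranges, and only Aqp1 (0 to 0.449, against 0.628 to 1.03 in tissue) remained apart. In CAM libraries with less Ttr the detection of single genes was patchy: D1 ipsilateral held 1830 counts of Ttr and 713 of Enpp2, with none of Kl, Clic6, Otx2, Sostdc1, Aqp1 or Slc4a5. Per kilobase of exon, Ttr in C4 contralateral stood at 31821 CPM, Enpp2 at 3369 and Sostdc1 at 221, and Slc4a5 was the lowest at 12.4.

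A list of other choroid plexus epithelial genes, 38 of them in the tables and none among the 10, was read in the same comparisons. In tissue 37 were tested, and 0 were called in any comparison by edgeR, with or without the block. In CAMs 4 of 37 were called lower ipsilaterally in CTL and 10 of 37 in BLZ945 mice, against 2.36% and 4.41% of all genes. With the block 7 and 21 were called lower, against 1.48% and 3.73% of all genes. The median log2 fold change without the block was -3.88 and -4.62. Of the 5 with the highest mean level in CAMs, Igfbp2 (an IGF-binding protein) had a median of 19.4 CPM over 6 ipsilateral and 110 CPM over 8 contralateral libraries, and Ecrg4 (a secreted peptide precursor) 5.28 and 78.5 CPM. Slc31a1, a copper transporter, held 173 and 252 CPM, Cab39l 83.7 and 141 CPM, and the cation channel gene Trpv4 82.2 and 61.7 CPM. In tissue the highest were Vat1l, Slc4a2, Igfbp2, Ace and Cab39l, led by Vat1l with a median of 152 CPM ipsilaterally and 145 CPM contralaterally.

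The genes most like the 10 were mostly from this other list. Over the 16 tissue libraries, the 10 genes with the highest Pearson's r with the mean log2(CPM + 1) of the set, among 14308 genes with a mean of at least 1 CPM, were Ecrg4 (0.986), F5 (0.986), Tmem72 (0.985), Krt18 (0.981), Sema3b (0.979), Rdh5 (0.978), Cldn2 (0.977), Mfrp (0.977), 2900040C04Rik (0.976) and Col9a3 (0.976), and 8 of them are on the list. Over the 14 CAM libraries, among 13851 genes, they were Kcnj13 (0.976), Rdh5 (0.974), Steap1 (0.973), Cox8b (0.966), Vat1l (0.963), Car12 (0.957), Igfbp2 (0.956), Kcne2 (0.953), Ins2 (0.953) and Ociad2 (0.9501), and 7 of them are on the list. Rdh5, a retinol dehydrogenase gene, was in both. Vat1l illustrates how the compartments differ: it had rank 5 in CAMs, where it ranged from 0 to 97.2 CPM, and in tissue no slice held less than 56.2 CPM. These correlations describe libraries that come in pairs from the same mice.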

How the data were processed

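Bulk RNA-seq of 32 libraries from 8 mice was used. Per the labels, reads were demultiplexed with bcl2fastq 2.20, aligned with STAR 2.7.11a and counted with featureCounts 2.0.8 (DESeq2 1.46.0 is also named), and the authors deposited raw counts per gene, 1 table for tissue and 1 for CAMs. CAM cDNA was amplified from little RNA, so counts are not independent molecules. The genome build of these tables is not given in the sources used here, so the counted genes are given without coordinates, and the promoter windows carry the coordinates of the RefSeq table (GRCm38.p6).

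The 10 genes, the marker lists and the tests were chosen with earlier results of these data known. The lists come from general knowledge of cell types, and a single batch is labelled, so no comparison within batches was possible. Libraries were mapped to mouse, treatment and hemisphere by library number and title. For A3 tissue, library 19 was taken as ipsilateral, as the labels have it, and 20 as contralateral. Replicates differed by 4.49 to 30.1 (tissue) and 35.1 to 139 times the sampling variance, so none was a copy.

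Genes whose counts summed to 8 or more (tissue) or 7 or more (CAMs) were fitted with edgeR 4.0.16 (quasi-likelihood, TMM) with 1 mean for each of 4 groups, and called at a Benjamini-Hochberg adjusted p under 0.05 over all genes tested and an absolute log2 fold change above 0.59. Tests were two-sided. CPM used total counts. Hemispheres come from the same animal, as the labels show, and deviations from group means correlated between them at a median r of 0.376 in tissue and 0.138 in CAMs. BLZ945 was compared with CTL without a block, since a mouse has 1 treatment. Alternatives were DESeq2 1.42.0, its size factors in edgeR, no filter, filterByExpr, the mouse block, leaving out each mouse, all 16 CAM libraries, TMM-scaled levels, a pseudocount of 0.1 in place of 1, and the A3 hemispheres as in the column names. The last together with the block was added after seeing the data. The edgeR model without the block and DESeq2 were run on simulated counts with known changes in CTL ipsilateral libraries. The other settings, the mouse block among them, were not tested on simulated data. All 10 genes were named. Fold changes were printed for Ttr, for genes called without the block and for genes a result turned on, the last, and the examples from the blocked model, chosen after their values were seen. Of other choroid plexus genes the 5 with the highest mean level were named, and 10 genes most like the set. Python 3.11.15 was used for summaries.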

Additional observations from a re-analysis of the deposited data

Results flagged for a closer look

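In groups of 4 libraries, a library was singled out when its gap in CPM to the nearest other library, as a share of the range of the group, passed Dixon's 95% critical value. For normally distributed values, chance gives this in about 1 of 20 groups. The CPM values here are skewed and were not put on a log scale, so that rate need not hold for them. A library was singled out in 26 of 66 groups of values, and always from the same 3 libraries, since the 10 genes move together and are not independent. Below, a library that stood apart did so by this rule on the CPM scale.

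The ipsilateral tissue library of A3 stood apart from the other CTL ipsilateral slices in Ttr (2425 CPM), Folr1 (18.5), Kl (116), Aqp1 (19.5), Clic6 (67.9), Slc4a5 (24.7), Prlr (39.5) and the sum of the 10 genes (4044). Its contralateral slice was as rich, with a sum of 3758 CPM.

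The ipsilateral tissue library of C2 stood apart from the other BLZ945 ipsilateral slices in Ttr (4095 CPM), Folr1 (32.9), Kl (194), Aqp1 (30.03), Enpp2 (2030), Clic6 (99.99), Otx2 (14.96), Slc4a5 (39.6), Sostdc1 (19.8) and the sum (6627).

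The contralateral CAM library of A4 stood apart from the other CTL contralateral libraries in Ttr (9194 CPM), Kl (149.7), Aqp1 (35.01), Enpp2 (4637), Otx2 (31.04), Slc4a5 (31.7), Sostdc1 (101.1) and the sum (14466).

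The 2 CAM libraries left out for degraded RNA held counts of the 10 genes above the limit that a count of 0 allows, which is 3 counts. A3 ipsilateral held 9 counts of Folr1, 7 of Otx2 and 12 of Sostdc1, with 1 of Ttr. C2 ipsilateral held 21 of Ttr and 16 of Enpp2. At totals of 54055 and 55155 counts, 3 counts correspond to 55.5 and 54.4 CPM.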

How the results depend on the processing

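In tissue, 0 of the 10 genes were called in each of the 5 comparisons under every alternative run, so the block, the filters, DESeq2, the A3 hemispheres and each mouse left out did not change a call. The Ttr log2 fold change in tissue changed sign in 6 settings: to 0.13 without B1 (CTL hemispheres), 0.84 without D1 (BLZ945 hemispheres), -5.71 without C2 (treatments, ipsilateral), and for the interaction 0.70 without A3, 0.88 without D1 and 0.0064 with the A3 hemispheres as in the column names. Over mice left out it ranged from -0.99 to 0.13 and from -6.08 to 0.84 between hemispheres (CTL, BLZ945), from -5.71 to 3.14 between treatments ipsilaterally, and from -6.04 to 0.88 for the interaction. In CAMs the interaction for Ttr turned to 0.16 without A3, 0.56 without A4 and 0.89 without C4, the lowest value being -1.21.

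In CAMs, the count of the 10 genes called between hemispheres of CTL mice was 0, against 3 by DESeq2 (which called 1775 genes in all), 1 with no filter and 5 with the replicate block. In BLZ945 mice it was 2, against 4 by DESeq2 (2462 genes in all), 10 with the replicate block, 1 with all 16 libraries and 0 to 3 with a mouse left out. The shares of all genes called lower ipsilaterally were 2.36% (CTL) and 4.41% (BLZ945) without the block and 1.48% and 3.73% with it. By DESeq2 they were 8.19% and 10.9%, and they are not given here for the other settings. DESeq2 called 1 between treatments ipsilaterally and 1 for the interaction, where edgeR called 0. All other settings left these counts the same or within 1.5 times. DESeq2's size factors moved the median log2 fold change over all genes in the CAM hemisphere comparisons from -0.11 to -0.18 (CTL) and from -0.15 to -0.24 (BLZ945), and the 10 genes stayed negative. The ranges over mice left out were -5.02 to -4.07 (CTL) and -5.47 to -3.37 (BLZ945) for Ttr between hemispheres, -6.57 to -4.83 for Enpp2 and -8.60 to -5.22 for Otx2. The cause of these changes was not tested, except that leaving out a mouse means fewer libraries. Group sums scaled by TMM, with all 16 libraries or with A3 as in the column names moved by less than 1 SD, and 7 of 10 most similar genes were shared in each compartment with a pseudocount of 0.1.

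With 3 or 4 mice a group, the SE of the Ttr log2 fold change between hemispheres was 2.09 to 2.20 without the block. Slc4a5 had no count in the 6 ipsilateral CAM libraries and Aqp1 had 8 counts in 1 of them.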

Other observations

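In the 6 mice with both CAM libraries, leptomeningeal fibroblast genes summed to 37.6 to 470 CPM ipsilaterally and 102 to 745 CPM contralaterally and were higher contralaterally in 5 of 6. Neuron genes summed to 5.35 to 53.2 and 49.2 to 236 CPM, and cortex genes to 0.194 to 7.17 and 4.28 to 53.9 CPM, both higher contralaterally in 6 of 6 mice. Thalamus genes were higher contralaterally in 2 of 6 mice, at 352 to 465 CPM ipsilaterally and 281 to 466 CPM contralaterally. The lowest thalamus sum lay above the highest neuron sum, so in CAMs this list is not read as RNA of thalamic neurons.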
